A study of Mus musculus with 8 samples.

Results

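The protease-activated receptors are a family of 4 mouse genes, F2r (PAR1), F2rl1 (PAR2), F2rl2 (PAR3) and F2rl3 (PAR4). They were taken by symbol from tables of 55487 genes, and each symbol matched 1 row. Their mRNA was followed in platelets of 8 male mice aged 13 weeks, 1 library per mouse: 4 mice heterozygous for a Dnmt3a mutation (Dnmt3a+/-) and 4 wild-type (WT) mice that the labels call littermates. Dnmt3a encodes a de novo DNA methyltransferase. The sources used here do not describe the kind of mutant allele. In all mice, platelets were spun out of platelet-rich plasma after cardiac puncture, red cells and leukocytes were removed with beads against Ter119 and CD45, and stranded libraries of polyadenylated RNA were sequenced. Of the receptor genes, 3 had enough counts to be tested between genotypes, and F2rl1 did not.

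Protease-activated receptors are G protein-coupled receptors that carry their own ligand. A protease cuts the extracellular end of the receptor, and the new amino terminus folds back and switches the receptor on. Thrombin, the final protease of coagulation, cuts PAR1, PAR3 and PAR4, while PAR2 is mainly cut by trypsin-like proteases. Human platelets respond to thrombin through PAR1 and PAR4. Mouse platelets are known to use PAR4 as the signalling receptor, with PAR3 as a cofactor that binds thrombin and presents PAR4 for cutting.

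The coding sequence around the cut shows the feature that defines the family, so it is given for every receptor. Each stretch is read 5′ to 3′ on the coding strand from the GENCODE M21 transcript (GRCm38), and the capitals mark the 6 codons that follow the cut and encode the start of the tethered ligand.
F2r: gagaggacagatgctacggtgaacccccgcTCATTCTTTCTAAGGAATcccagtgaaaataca
F2rl1: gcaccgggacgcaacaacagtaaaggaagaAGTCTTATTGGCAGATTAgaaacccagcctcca
F2rl2: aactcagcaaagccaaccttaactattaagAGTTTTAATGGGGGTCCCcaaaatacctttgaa
F2rl3: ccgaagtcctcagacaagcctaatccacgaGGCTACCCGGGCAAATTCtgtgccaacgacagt
The capitals lie in exon 2 of each gene, at chr13:95604885-95604902 (minus strand) in F2r, chr13:95514241-95514258 (minus strand) in F2rl1, chr13:95700560-95700577 (plus strand) in F2rl2 and chr8:72762324-72762341 (plus strand) in F2rl3. The coding transcripts have 2 exons each, with 430 codons in F2r, 399 in F2rl1, 369 in F2rl2 and 396 in F2rl3, stop codons not counted. Over the 18 capital bases, F2rl2 and F2rl3 matched at 5 positions, and the closest pair was F2rl1 and F2rl2, with 10.

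Total counts ran from 15620972 to 22160394 in the Dnmt3a+/- libraries and from 15185218 to 17398666 in the WT libraries. All 10 platelet markers were present and summed to 39890 to 48803 counts-per-million units (CPM, after TMM scaling) in Dnmt3a+/- and 41842 to 46647 in WT. Dnmt3a itself was at 9.96, 11.5, 24.2 and 19.5 CPM in Dnmt3a+/- replicates 1 to 4, against 21.1, 22.1, 19.8 and 18.2 in WT. Of the libraries labelled Dnmt3a+/-, replicate 3 was thus above all WT values in CPM and replicate 4 was inside the WT range. Dnmt3a was also read in transcripts-per-million units (TPM, counts corrected for gene length). It was at 4.67, 3.52, 10.12 and 10.86 TPM in Dnmt3a+/- replicates 1 to 4, against 7.11, 8.91, 6.41 and 5.6 in WT. On that scale replicates 3 and 4 were both above all WT values. The mean was 7.29 ± 3.73 TPM in Dnmt3a+/- and 7.01 ± 1.41 in WT (SD, n = 4 each). Receptor results are therefore also given without replicates 3 and 4. The log2 fold change of Dnmt3a, Dnmt3a+/- over WT, was -0.31 (SE 0.25, edgeR adjusted p = 0.998). WT replicate 1 held 20720 CPM of 10 erythroid markers, against 2007 to 5006 in the other libraries, and mitochondrially encoded genes took 24.8% of the counts of WT replicate 3, against 16.7% to 19.0% elsewhere. In bulk samples like these, fewer cells of a type and less RNA per cell cannot be told apart.

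F2rl2, which encodes the cofactor PAR3, had the most abundant mRNA of the family. Receptor protein was not measured, and every level given here is of mRNA. F2rl2 measured 226, 207, 213 and 205 TPM in Dnmt3a+/- replicates 1 to 4, against 224, 219, 156 and 206 TPM in WT. WT replicate 3, the library with the largest mitochondrial share, was the low one, the 7 others lay close together, and the groups overlapped. These levels rested on 6973 to 9613 counts in Dnmt3a+/- and 6108 to 7880 in WT. The means were 213 ± 9.36 TPM in Dnmt3a+/- and 201 ± 31.2 TPM in WT (SD, n = 4 each). By mean TPM over the 8 libraries, F2rl2 ranked 409 among all genes in the table.

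The mRNA of F2rl3, which encodes the signalling receptor PAR4, was present at a far lower level. It measured 4.71, 4.14, 5.20 and 4.47 TPM in Dnmt3a+/- replicates 1 to 4, from 107, 95, 124 and 142 counts. In WT it measured 6.54, 4.67, 2.80 and 2.93 TPM, from 153, 115, 75 and 64 counts. The WT libraries held both the highest and the lowest values, and all 4 Dnmt3a+/- values fell between them. The means were 4.63 ± 0.45 TPM in Dnmt3a+/- and 4.24 ± 1.76 TPM in WT (SD, n = 4 each).

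F2r, the PAR1 receptor through which thrombin acts on human platelets and on many vascular cells, was detected in every library. It measured 2.92, 4.66, 3.78 and 2.55 TPM in Dnmt3a+/- replicates 1 to 4, against 2.79, 3.79, 3.11 and 3.12 TPM in WT. Dnmt3a+/- replicates 2 and 4 were the highest and the lowest of all 8, so the groups overlapped. The underlying counts were 132 to 213 in Dnmt3a+/- and 130 to 185 in WT. The means were 3.48 ± 0.94 TPM in Dnmt3a+/- and 3.20 ± 0.42 TPM in WT (SD, n = 4 each).

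Since F2r is known from other cell types, markers of those cells were read in the same libraries. All 10 endothelial markers had counts, and they summed to 379 to 454 CPM in Dnmt3a+/- and 401 to 459 in WT. Most of this sum was Esam, which platelets also express, at 5429 to 7737 counts in Dnmt3a+/- and 5460 to 6792 in WT. Kdr, the main VEGF receptor of endothelium, had 142 to 235 counts in Dnmt3a+/- and 100 to 223 in WT, and Cdh5, the endothelial cadherin, 20 to 72 and 25 to 94. The 10 markers of fibroblasts and smooth muscle, all with counts, summed to 4.85 to 25.2 CPM in Dnmt3a+/- and 9.26 to 32.1 in WT. Among them, Dcn had 8 to 291 counts in Dnmt3a+/- and 58 to 209 in WT, and Col3a1 5 to 123 and 16 to 161. Pdgfrb had 0 to 2 and 0 to 3 counts. Of 10 T and NK cell markers, 8 had counts and Cd3e and Cd3g had 0 in all libraries. That list summed to 4.21 to 6.53 CPM in Dnmt3a+/- and 3.19 to 7.01 in WT. Most of this sum was Nkg7, at 64 to 99 counts in Dnmt3a+/- and 53 to 106 in WT, and each other member had 4 counts or fewer per library. The 10 monocyte and macrophage markers, all with counts, summed to 3357 to 5371 CPM in Dnmt3a+/- and 3575 to 6605 in WT, most of it Lyz2, while Csf1r had 13 to 61 and 11 to 51 counts. The part of these cells in the F2r level was not tested.

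F2rl1, the PAR2 receptor of epithelial and vascular cells, was near the limit of detection. It had 0, 1, 2 and 0 counts in Dnmt3a+/- replicates 1 to 4, against 0, 1, 3 and 1 in WT. These 8 counts in all were spread over 5 of 8 libraries and both genotypes. A count of 0 allows up to 3 expected counts, which is 0.198 and 0.130 CPM in Dnmt3a+/- replicates 1 and 4 and 0.191 CPM in WT replicate 1. Such limits cover counting error only. A difference in F2rl1 was not detectable at this depth.

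**Figure D1:**
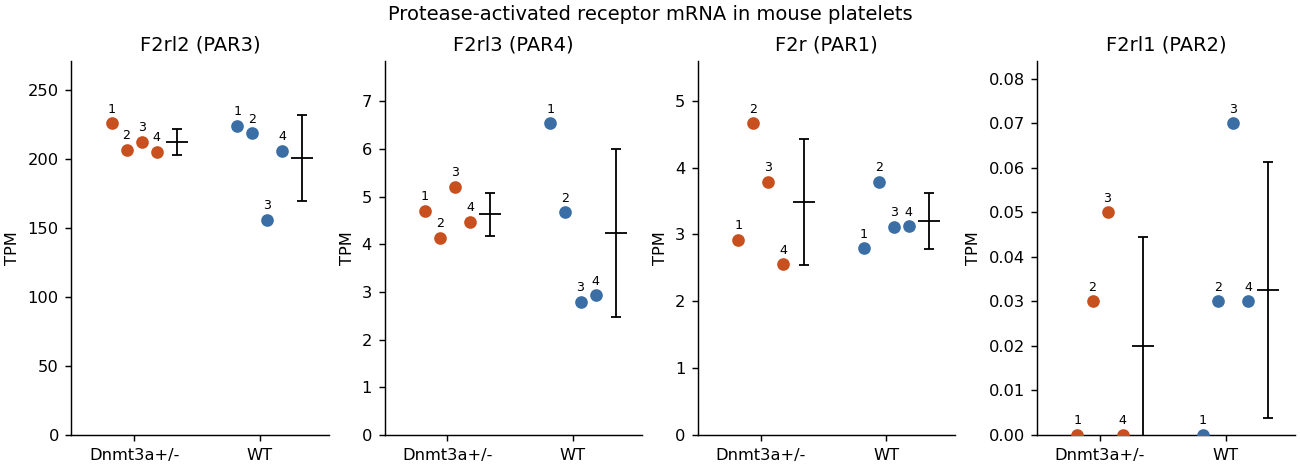
TPM of the 4 receptors in each library (dots, numbered by replicate), with the mean and SD of 4 libraries beside each group; each panel has its own vertical scale, which starts at 0. F2rl2 lies between 156 and 226 TPM, F2rl3 and F2r between 2.55 and 6.54, and F2rl1 at 0.07 or less, and the groups overlap in every panel.

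The order of levels was set by F2rl2 and was the same at both ends in all libraries. F2rl2 exceeded F2rl3 in 8 of 8 libraries, by 202 ± 21.3 TPM (mean ± SD of the within-library difference; exact two-sided sign-flip test, adjusted p = 0.0117 over 3 pairs). F2r exceeded F2rl1 in 8 of 8 libraries, by 3.31 ± 0.68 TPM (exact sign-flip adjusted p = 0.0117). The pairs were taken in the order of levels already seen. For these pairs all 8 signs were alike, so the sign-flip p before adjustment was 0.0078, the smallest that 256 flips can give. That p adds nothing to the order seen. F2rl3 and F2r, neighbours in this order, did not differ beyond their spread. F2rl3 was the higher in 5 of 8 libraries, by a mean of 1.09 ± 1.44 TPM (exact sign-flip adjusted p = 0.0703). F2rl2 made up 95.9% to 96.7% of the summed TPM of the family in Dnmt3a+/- libraries and 96.0% to 97.1% in WT libraries. F2rl3 made up 1.92% to 2.35% in Dnmt3a+/- and 1.38% to 2.80% in WT. No interval was computed for these shares.

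Set among 14 other receptors of platelet activation and inhibition on the TPM scale, F2rl2 had rank 5, F2rl3 rank 8, F2r rank 9 and F2rl1 rank 15 of 18. The levels above F2rl2 belonged to Clec1b, the podoplanin receptor CLEC-2 (4887 ± 221 TPM in Dnmt3a+/- and 4465 ± 559 in WT), and to P2ry12, the Gi-coupled ADP receptor (1872 ± 367 and 1470.2 ± 230.3). They were followed by Gp6, the collagen receptor GPVI (513 ± 4.96 and 507 ± 60.3), and P2rx1, an ATP-gated channel (457 ± 103 and 496 ± 115). Below F2rl2 came P2ry1, the Gq-coupled ADP receptor (29.8 ± 3.77 TPM in Dnmt3a+/- and 24.2 ± 2.37 in WT; SD, n = 4 each). F2rl3 lay below P2ry1 in every library.

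**Figure D2:**
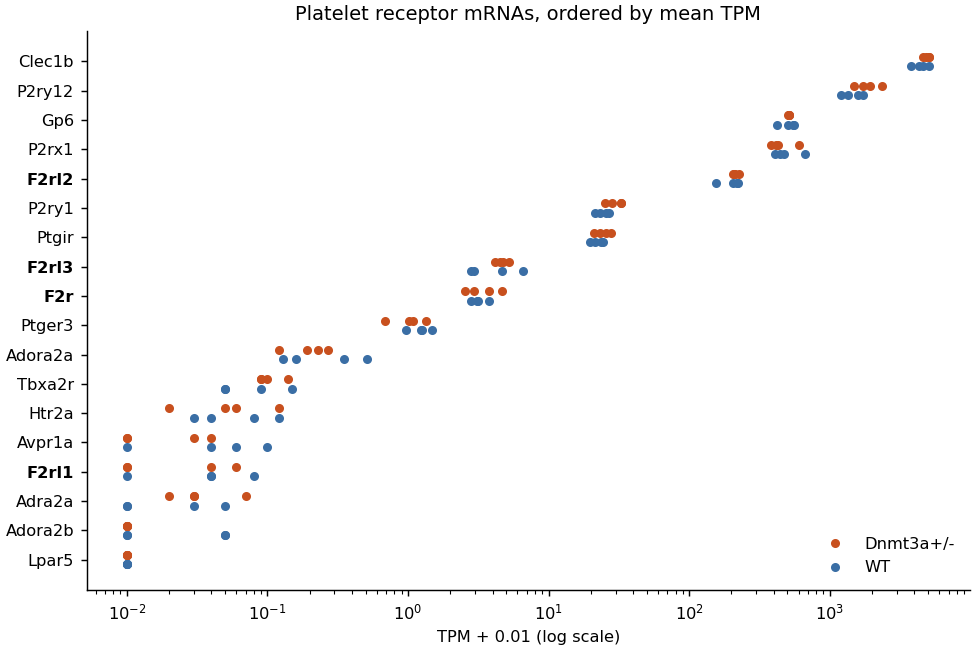
TPM plus 0.01 on a log axis for the 4 receptors (bold) and 14 other platelet receptors, 1 dot per library, Dnmt3a+/- above WT, ordered by the mean over 8 libraries. F2rl2 sits between P2rx1 and P2ry1, F2rl3 and F2r lie next to each other between Ptgir and Ptger3, and F2rl1 is among the genes at or near 0.

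The study asks how platelets of Dnmt3a+/- mice differ from those of WT littermates, and none of the 3 testable receptors differed beyond the spread between replicates. Log2 fold changes are Dnmt3a+/- over WT from edgeR's quasi-likelihood test, adjusted over the 7362 genes tested. The log2 fold change of F2rl2 was 0.054 (SE 0.10, edgeR adjusted p = 0.998), with a 95% interval from -0.17 to 0.28, or 0.89-fold to 1.21-fold. That of F2rl3 was 0.098 (SE 0.25, edgeR adjusted p = 0.998), and its interval from -0.45 to 0.65 spans 0.73-fold to 1.56-fold. That of F2r was 0.082 (SE 0.19, edgeR adjusted p = 0.998), with an interval from -0.35 to 0.51, or 0.79-fold to 1.42-fold. The interval of F2rl2 is the narrowest of the 3, and those of F2rl3 and F2r leave room for changes of about the sizes at their ends. Over all genes tested, 0 of 7362 (0%) passed the adjusted threshold of 0.05, and 362 (4.92%) had an unadjusted p under 0.05. None of the 3 receptors was among the 2.54% of genes whose groups did not overlap in CPM (1.37% higher and 1.17% lower in Dnmt3a+/-).

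The direction of the small differences was not stable for F2rl3 and F2r. F2rl3 was at -0.011 without WT replicate 3 and at -0.045 without WT replicate 4. It was at 0.40 without WT replicate 1, the library with the most erythroid RNA (edgeR unadjusted p = 0.0603, adjusted p = 0.918). F2r was at -0.094 without Dnmt3a+/- replicate 2. F2rl2 stayed above 0 in each of the 17 alternatives, between 0.0015 without WT replicate 3 and 0.12 without WT replicate 1, and was at 0.054 with mitochondrially encoded genes left out. Without the libraries labelled Dnmt3a+/- replicates 3 and 4, the values were 0.11 for F2rl2, 0.071 for F2rl3 and 0.24 for F2r (lowest edgeR adjusted p 0.997).

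The ratio of PAR3 to PAR4 mRNA was high under both genotypes. F2rl2 TPM divided by F2rl3 TPM was 47.9, 50.0, 40.9 and 45.9 in Dnmt3a+/- replicates 1 to 4, against 34.3, 46.8, 55.6 and 70.2 in WT. The 4 Dnmt3a+/- ratios lay inside the WT range, whose ends were WT replicates 1 and 4. The means were 46.2 ± 3.89 in Dnmt3a+/- and 51.7 ± 15.1 in WT (SD, n = 4 each). On the log2 scale the difference was -0.12 (exact two-sided permutation p = 0.629, adjusted p = 0.971 over 3 ratios). The smallest p that 70 arrangements can give is 0.0286. The difference was -0.30 without WT replicate 1 (exact permutation p = 0.114) and 0.043 without WT replicate 4 (exact permutation p = 0.800). Without the libraries labelled Dnmt3a+/- replicates 3 and 4 it was -0.032. The ratio of F2rl2 to F2r averaged 64.6 ± 17.2 in Dnmt3a+/- and 63.5 ± 13.0 in WT (exact permutation adjusted p = 0.971), and that of F2rl3 to F2r averaged 1.41 ± 0.38 and 1.35 ± 0.68 (exact permutation adjusted p = 0.971).

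The ratio was larger in raw counts than per length. In raw counts F2rl2 exceeded F2rl3 60.0-fold to 73.4-fold in Dnmt3a+/- and 50.4-fold to 103-fold in WT. The F2rl2 transcript is annotated with 2502 bases and the coding F2rl3 transcript with 1751. The deposited values gave F2rl2 1.46 to 1.48 times as many counts per TPM as F2rl3 in each library.

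**Figure D3:**
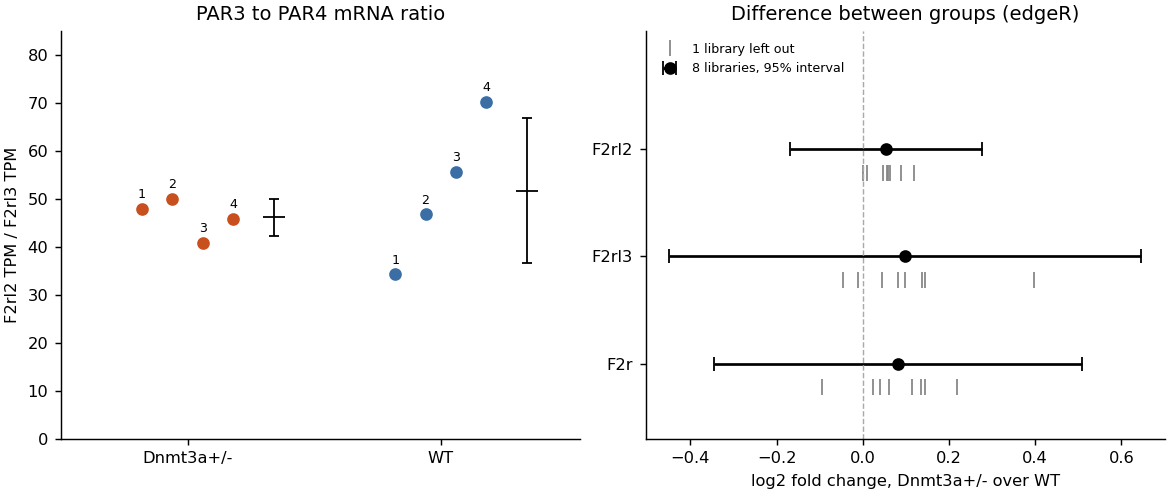
Left, F2rl2 TPM over F2rl3 TPM in each library (dots, numbered by replicate; bars, mean and SD of 4). Right, log2 fold change of Dnmt3a+/- over WT with its 95% interval (black) and the value with each library left out in turn (grey ticks); the 4 Dnmt3a+/- ratios of 40.9 to 50.0 lie inside the WT range of 34.3 to 70.2, and all 3 intervals include 0.

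F2rl2 and F2rl3 were positively correlated across the 8 libraries, less clearly by rank. Other genes, named below, followed each of them more closely, and whether the pair shared more than a pattern common to many genes was not tested. In log2 CPM, Pearson's r was 0.74 (exact permutation p = 0.0348) and Spearman's rho 0.67 (exact permutation p = 0.0831), the 1 relation tested. Without WT replicates 1 and 4, the libraries farthest from the median of F2rl3, r was 0.85 over 6 libraries. With 4 libraries per genotype, r within a genotype was not computed. WT replicate 1 was the highest for F2rl3 and the second highest for F2rl2, at 9.75 and 491 CPM.

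Genes of similar pattern were sought among 2590 other genes with a mean of at least 10 CPM. Genes whose symbol is a clone name, a gene-model number or an identifier were left out. Those whose log2 CPM followed F2rl2 most closely across the 8 libraries were Ilk, integrin-linked kinase (r = 0.97), and Tpm1, a tropomyosin (r = 0.97). Next came Gp1ba, the thrombin- and von Willebrand factor-binding chain of the GPIb complex (r = 0.96). Capn2, a calpain protease (r = 0.95), and Abcc5, a membrane transporter (r = 0.95), followed. For F2rl3 the closest were Inpp5a, an inositol phosphate phosphatase (r = 0.92), Cyp2b10 (r = 0.90) and the ribosomal protein gene Rpl35 (r = 0.90). The aminopeptidase gene Xpnpep1 (r = 0.90) and Ccdc12 (r = 0.88) came after them. These are the highest of many correlations over the same 8 libraries and are given as a description.

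F2rl1, F2r and F2rl2 lie in 1 cluster on chromosome 13 of GRCm38, while F2rl3 is on chromosome 8. F2rl1 (95511732 to 95525227) and F2r (95601803 to 95618487) are on the minus strand and 76576 bases apart. F2rl2 (95696853 to 95702739) is on the plus strand, inside an intron of Iqgap2 (95627177 to 95891922, minus strand), whose exons come no closer than 5139 bases. The members of the cluster differed widely in level, from 8 counts of F2rl1 over the 8 libraries to 1302 of F2r and 59872 of F2rl2. Iqgap2, a scaffold protein of the cytoskeleton, had 49 to 112 counts in Dnmt3a+/- and 52 to 82 in WT. No source used here gives the strand setting of the counting, and whether reads of the Iqgap2 intron entered the F2rl2 counts was not tested. The nearest tested genes did not differ between genotypes beyond their spread. The log2 fold change was -0.043 (SE 0.21) for Iqgap2, -0.31 (SE 0.33) for Aggf1, 0.13 (SE 0.30) for Polk, and 0.072 (SE 0.17) for Sin3b, which ends 3679 bases before F2rl3 (72761880 to 72763874, plus strand; edgeR adjusted p = 0.998 for each). An unnamed gene model 1607 bases beyond F2rl3 was at 0.029 (SE 0.19).

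**Figure D4:**
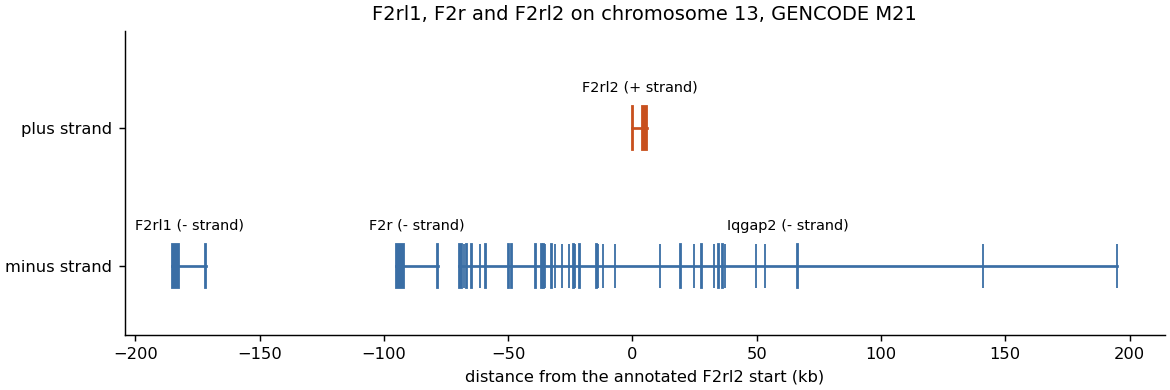
Gene spans (lines) and exons (boxes) of F2rl1, F2r, Iqgap2 and F2rl2 by strand, in kb from the annotated F2rl2 start. The 2 exons of F2rl2 on the plus strand fall between exons of Iqgap2 on the minus strand, and F2r and F2rl1 lie to the left.

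The sequence upstream of F2rl2 and F2rl3 is shown because these are the pair whose mRNAs were compared above, at very different levels. Capitals mark AGATAA, a motif of GATA factors, and AGGAAG, a motif of ETS factors, on either strand; both factor families act in megakaryocytes, and the motifs were chosen with the sequences in view. The sequences are from RefSeq (GRCm38.p6), 5′ to 3′ on the gene's strand, up to the first annotated start in RefSeq or GENCODE.
F2rl2 (chr13:95696670-95696852): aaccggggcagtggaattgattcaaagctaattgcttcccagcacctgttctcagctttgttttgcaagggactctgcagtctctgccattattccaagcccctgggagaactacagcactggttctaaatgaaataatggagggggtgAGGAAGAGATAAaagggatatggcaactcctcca
F2rl3 (chr8:72761409-72761658): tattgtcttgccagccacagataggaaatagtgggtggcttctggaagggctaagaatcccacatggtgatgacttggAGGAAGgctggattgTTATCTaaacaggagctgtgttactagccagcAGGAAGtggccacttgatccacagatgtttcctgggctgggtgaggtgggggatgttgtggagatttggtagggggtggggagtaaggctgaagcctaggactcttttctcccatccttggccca
In the 250 bases before the RefSeq start, F2rl2 held 1 AGATAA and 1 AGGAAG side by side, F2rl3 held 1 AGATAA and 2 AGGAAG, and F2r held 0 of either. Of 32817 promoter windows of that length, 9.99% held AGATAA and 29.5% held AGGAAG. CpG dinucleotides, the substrate of Dnmt3a, numbered 24 in the window of F2r, 1 in that of F2rl2 and 0 in that of F2rl3, against a median of 6 over all windows. The annotated F2rl3 start differs by 221 bases between RefSeq and GENCODE. The table matched 3 of 4 receptors, and F2rl1 was the one without a promoter in it. A motif match is a description of the letters, not evidence of binding.

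Around the receptors, the thrombin pathway was read in 6 lists of 91 gene names. Adrbk1 and Adrbk2, older names of Grk2 and Grk3, were listed beside them and not found. The 89 genes found include Grk2 and Grk3, and 59 had enough counts to be tested. Of these, 0 passed the adjusted threshold in either direction (0% over all genes), 29 had positive and 30 negative log2 fold changes, and the median was -0.0078, against -0.0050 over all 7362 genes. The members at an unadjusted p under 0.05 were 1 higher and 4 lower, where 1.73% of all tested genes were higher and 3.19% lower. In none of the 59 did the groups fail to overlap (2.54% over all genes).

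Of the proteases that can cut these receptors, the highest mean level was that of F10, the gene of coagulation factor X. F10 was at 33.2 ± 7.08 TPM in Dnmt3a+/- and 38.2 ± 7.87 in WT (SD, n = 4 each; log2 fold change -0.21, SE 0.19, edgeR adjusted p = 0.998). F2, the gene of thrombin itself, had 25, 0, 21 and 0 counts in Dnmt3a+/- replicates 1 to 4, against 1, 81, 274 and 222 in WT. Plg, the gene of plasminogen, had 40, 0, 40 and 0 counts in Dnmt3a+/-, against 4, 69, 425 and 321 in WT. In both genes, WT replicates 2 to 4 were above all Dnmt3a+/- libraries and WT replicate 1 was not. Ctsg, Elane, Tpsab1, Tpsb2 and Mmp1a, proteases of neutrophils, mast cells and matrix, had 0 counts in all 8 libraries. In this list 3 of 12 genes were tested, with 0 positive and 3 negative values (median -3.40).

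Of the genes that bind or inhibit thrombin, those of the platelet GPIb-IX-V complex had the highest levels. Gp9 and Gp5, subunits of that complex, were at 1953 ± 736 and 447 ± 34.2 TPM in Dnmt3a+/-, and at 2055 ± 860.2 and 457 ± 53.1 TPM in WT (SD, n = 4 each). Gp5 is itself cut by thrombin. Serpinc1, antithrombin, had 23, 0, 39 and 1 counts in Dnmt3a+/- replicates 1 to 4, against 4, 110, 426 and 306 in WT, and Serpind1, heparin cofactor II, had 10, 0, 4 and 0 against 1, 39, 117 and 94. Serpinc1 was at 0 to 3.75 TPM in Dnmt3a+/- and 0.62 to 31.97 TPM in WT. Serpine2, another inhibitor in the list, was higher, at 146 ± 10.8 TPM in Dnmt3a+/- and 140 ± 10.7 in WT (SD, n = 4 each). Its log2 fold change was -0.10 (SE 0.091, edgeR adjusted p = 0.998). In this list 7 of 10 genes were tested, 1 with a positive and 6 with negative values (median -0.10).

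The log2 fold changes of the 4 plasma protein genes were -3.70 (SE 1.18) for F2, -3.40 (SE 1.22) for Plg, -3.80 (SE 1.16) for Serpinc1 and -4.20 (SE 1.13) for Serpind1. None passed (lowest edgeR adjusted p = 0.647). These are genes of the liver, and 10 hepatocyte markers, all with counts, summed to 94.0, 2.85, 131 and 3.56 CPM in Dnmt3a+/- replicates 1 to 4, against 19.3, 320, 1435 and 1125 in WT. The libraries with the most of these markers were thus those with the most F2, Plg, Serpinc1 and Serpind1 counts, and the part of liver RNA in these values was not tested. With no filter on low counts 6 members of the 6 lists were called lower, namely these 4 with F7 and Proc, where 1.35% of 18462 genes were called. Without WT replicate 1 the 4 called lower were F2, Proc, Serpinc1 and Serpind1, where 1.75% of 7718 genes were called. With DESeq2 0 members of the lists were called, where 0.164% of 9155 genes were called.

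The G proteins, effectors and brakes of receptor signalling had medians near 0. Of 12 G protein genes 8 were tested, 5 with positive and 3 with negative values (median 0.050). Gng11, a gamma subunit, was at 26634 ± 2299 TPM in Dnmt3a+/- and 23216 ± 2389 in WT, and Gnai2, a Gi alpha subunit, at 457 ± 49.4 and 464 ± 76.8. Gnaq, the alpha subunit that couples PAR4 to phospholipase C, at 18.7 ± 2.63 TPM in Dnmt3a+/- and 17.5 ± 2.10 in WT, and Gna13, another alpha subunit, at 16.4 ± 1.53 and 15.8 ± 2.51, did not pass the test (edgeR adjusted p = 0.998 for both). Of 26 effectors 23 were tested, 13 with positive and 10 with negative values (median 0.066). Rasgrp2, the calcium-driven activator of Rap1, was at 1996 ± 265 TPM in Dnmt3a+/- and 1994 ± 301 in WT, and Rap1b at 1205 ± 289 and 1013 ± 190.5. For desensitisation and trafficking, 15 genes were found and 11 of them tested, 6 with positive and 5 with negative values (median 0.036). Rgs10 and Rgs18, which end G protein signals, were at 2647 ± 136 and 1926 ± 427 TPM in Dnmt3a+/-, and at 2575 ± 221 and 1578 ± 313 TPM in WT (SD, n = 4 each).

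Among the other platelet receptors 7 of 14 were tested, 4 with positive and 3 with negative values (median 0.078). P2ry1 was the member with an unadjusted p under 0.05. It had a log2 fold change of 0.28 (SE 0.11, edgeR adjusted p = 0.971), and its Dnmt3a+/- values of 63.1, 80.4, 69.1 and 77.0 CPM overlapped the WT values of 51.2, 60.3, 63.9 and 62.9 CPM.

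**Figure D5:**
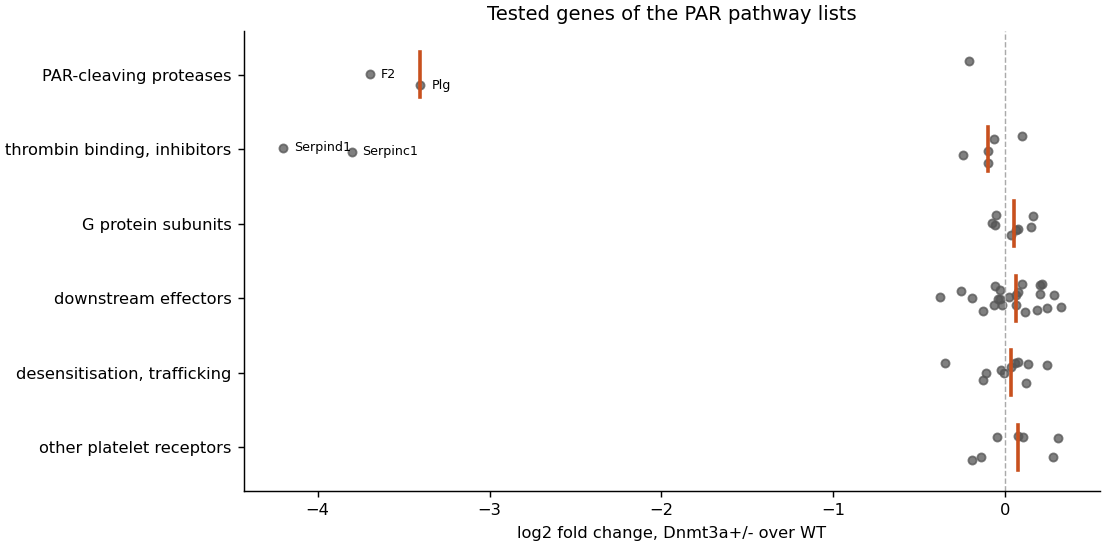
Log2 fold change of Dnmt3a+/- over WT for the 59 tested genes of the 6 lists (grey dots, spread vertically for legibility), with the median of each list (orange line). Only F2, Plg, Serpinc1 and Serpind1 lie below -1, and the other 55 genes lie between -0.38 and 0.32.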

How the data were processed

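Estimated counts and TPM per gene were used as deposited by the authors for 8 platelet libraries. The tools listed for the series are RSEM, STAR, cutadapt and DESeq2, with build mm10, per the submitters' processing notes. No source used here gives their roles, the annotation release or the strand setting.

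Counts were fitted with edgeR 4.0.16 (R 4.3.3): filterByExpr by group (minimum count 10, minimum total 15), TMM, glmQLFit and glmQLFTest, with Benjamini-Hochberg adjustment over 7362 genes at 0.05. CPM are scaled by TMM. Standard errors were derived from the F statistic, and 95% intervals from the test's degrees of freedom. Ratios and orders of TPM were tested exactly over libraries. Alternatives used DESeq2 1.42.0, limma 3.58.1 on log2(TPM + 1) and log2(TPM + 0.1), other factors, no filter, a replicate block and libraries left out. The fits were tested on simulated data. In 3 runs edgeR recovered 10.4% of 201 genes set to 1.5-fold, 46.3% of 201 set to 2-fold and 91.4% of 198 set to 4-fold. Most genes set to 1.5-fold were thus missed. At 2-fold, DESeq2 recovered 55.2% and limma 46.8%. In each of 28 pairs of libraries, counts differed by more than sampling noise (chi-square over its degrees of freedom at least 12.3), and each library counted as 1 replicate.

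Genes named were the receptors, Dnmt3a, the neighbours, the closest 5 genes in pattern to F2rl2 and F2rl3, and per list the 2 highest in TPM and up to 2 per direction with an unadjusted p under 0.05; genes named beyond these were chosen after their values were seen. The members and lists were chosen with earlier results of these data known. Coordinates are from GENCODE M21 (GRCm38, also called mm10).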

Additional observations from a re-analysis of the deposited data

How the results depend on the processing

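The count of genes past the threshold was 0 as reported, 250 with no filter on low counts and 15 with DESeq2, and it ran from 0 to 135 with 1 library left out; 135 came without WT replicate 1 and 1 without Dnmt3a+/- replicate 2. It was 1 without the libraries labelled Dnmt3a+/- replicates 3 and 4, a setting chosen after seeing the data. The number of pathway genes past the threshold was 0 as reported, 6 with no filter and 0 to 4 with 1 library left out. The cause was not tested. F2rl2, F2rl3 and F2r were called in none of their 17 alternatives. With 1 library left out, the log2 fold change ran from 0.0015 to 0.12 for F2rl2, from -0.045 to 0.40 for F2rl3 (-0.011 without WT replicate 3) and from -0.094 to 0.22 for F2r, and the log2 difference in the F2rl2 to F2rl3 ratio from -0.30 to 0.043. For F2rl1, with no filter, edgeR gave -0.69 (adjusted p = 0.950) from 8 counts. Pairing by replicate number was not visible in expression. The same-numbered deviations correlated at -0.18, 0.03, 0.24 and -0.24, and 0 Dnmt3a+/- libraries correlated best with the WT library of the same number. Such correlations cannot show whether equal numbers mark littermates or shared handling. With the replicate block, 0 genes passed, F2rl2 was at 0.056, F2rl3 at 0.16 and F2r at 0.054, and the ratio gave an exact p of 0.750. Depth limits F2rl1, with 0 to 3 counts per library; F2rl3 and F2r had 64 to 213.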

Other observations

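Some genes that act beside the thrombin receptors in platelets were listed with few counts. Tbxa2r, the thromboxane receptor, had 2 to 3 counts in the Dnmt3a+/- libraries and 1 to 3 in the WT libraries, at 0.095 ± 0.024 and 0.075 ± 0.047 TPM (SD, n = 4 each). Plcb2, a phospholipase C downstream of Gq, had 5 to 8 counts in Dnmt3a+/- and 1 to 5 in WT. Plcb3 also had few, at 8 to 23 in Dnmt3a+/- and 4 to 16 in WT. Plcb1 had 237 to 436 counts in Dnmt3a+/- and 167 to 282 in WT, and Plcb4 147 to 286 and 169 to 233. These genes were chosen after their values were seen.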
